A study of Homo sapiens with 8 samples.

Results

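Axon guidance genes encode secreted and membrane-bound cues and their receptors, and 69 of them were read among the 19775 genes on the arrays. They were chosen by symbol, with earlier results of these data known: semaphorins of classes 3 to 7 (20 genes), plexins and neuropilins (11), Eph receptors (13), ephrins (8), slits and ROBO receptors (7), and netrins with UNC5 symbols (10). The symbol rule also takes UNC50, a Golgi protein of another family that is no netrin receptor, and its values were kept in the counts. EPHB2, an Eph receptor gene, and EFNA4-EFNA3 match the rule too, but no probe set named them alone, so they were not read. The cells were MDA-MB-453, 1 human breast cancer cell line that is known to lack estrogen receptor and to respond to androgen through its androgen receptor. Every group spent 3 days without phenol red and on 5% serum stripped of steroids with charcoal and dextran. The groups were vehicle and the androgen DHT (5α-dihydrotestosterone) at 10 nM for 4, 16 or 48 h, each with 2 biological replicates, and total RNA was read on 8 arrays. How long the vehicle cells were treated is not given in the labels, and their arrays served as the control at every time, so DHT and time in culture cannot be told apart, and the 3 comparisons with vehicle share their control arrays.

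In the developing nervous system these families steer growing axons, and in epithelia they act on cell adhesion, migration and vessel growth. Semaphorins bind plexins, and class 3 semaphorins, which are secreted, mostly do so together with a neuropilin. Ephrins are tethered to the cell surface (type A by a lipid anchor, type B by a membrane span) and bind Eph receptor kinases on neighbouring cells, with signals into both cells. Slits bind ROBO receptors, and netrins bind DCC, neogenin and UNC5 receptors, while some netrins also bind laminin in basement membranes.

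Signals are log2 values per probe set after robust multi-array average (RMA) normalisation, and signals of different probe sets are not comparable as amounts of RNA. The median over all probe sets was 7.59 to 7.63 on the 8 arrays. Replicates correlated across genes at 0.995 to 0.997, where genes are not independent. The array of DHT 16 h replicate 2 differed from the rest: it scored -23.1 on principal component 2, which held 16.1% of variance, where the others scored -0.5 to 10.8, and its difference between 3′ and 5′ control probe sets was 1.521 for ACTB, against 0.203 to 0.945. Of the luminal markers, 10 were measured and had mean signals of 12.08 to 14.18 (the androgen receptor gene was not analysed here). The 5 neuronal markers had 5.32 to 9.04, the 3 endothelial ones 5.02 to 9.35, the 3 immune ones 6.65 to 8.49 and the 5 fibroblast ones 6.83 to 10.62, and limma called none of these 16 at 48 h. Of the luminal markers 5 were called at 48 h, with log2 changes of -0.85 for GATA3, -0.72 for FOXA1, -0.65 for ERBB2, -0.44 for TFAP2A and 0.68 for KRT19. Of 2 basal markers KRT5 was called (0.51, adjusted p = 0.00666), and the part of these shifts in the guidance results was not tested. The guidance probe sets of highest signal were those of PLXNB2 (12.86), SEMA3F (11.83), SEMA4A (10.87), UNC5B (10.81), EFNA1 (10.47) and UNC50 (10.23), and 4 members (SEMA3E, SEMA3D, UNC5D and ROBO2) had a mean signal under 6. Markers of other cell types read up to 10.62, so signals above 6 may also be background.

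A few guidance genes changed strongly, and most did not pass the test. A change was called at an adjusted p below 0.05 (limma, Benjamini-Hochberg over all 19775 genes, n = 2 a group). At 4 h 1 of 69 was called, EPHA4, which fell (all genes: 0.177%, with 0.106% higher and 0.0708% lower). At 16 h 7 of 69 were called, 3 higher and 4 lower (all genes: 6.85%, with 2.55% higher and 4.3% lower). At 48 h 11 of 69 were called, with 5 higher and 6 lower (all genes: 9.51%, with 3.13% higher and 6.38% lower). The median log2 change of the 69 was 0.02, 0.05 and 0.05 at 4, 16 and 48 h, against 0.00, 0.02 and 0.01 over all genes. A test over all 3 times called 9 members (all genes: 8.9%). The DHT and vehicle arrays did not overlap for 36 of 69 members at 4 h (all genes: 40.2%), 35 at 16 h (all genes: 47%) and 34 at 48 h (all genes: 51.8%). The 58 members with no call against vehicle had log2 changes of -0.36 to 0.40 over the 3 times. Counts of called members at 4, 16 and 48 h depended on single arrays, and so did the counts over all genes. The ranges are given in the last section.

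**Figure D1:**
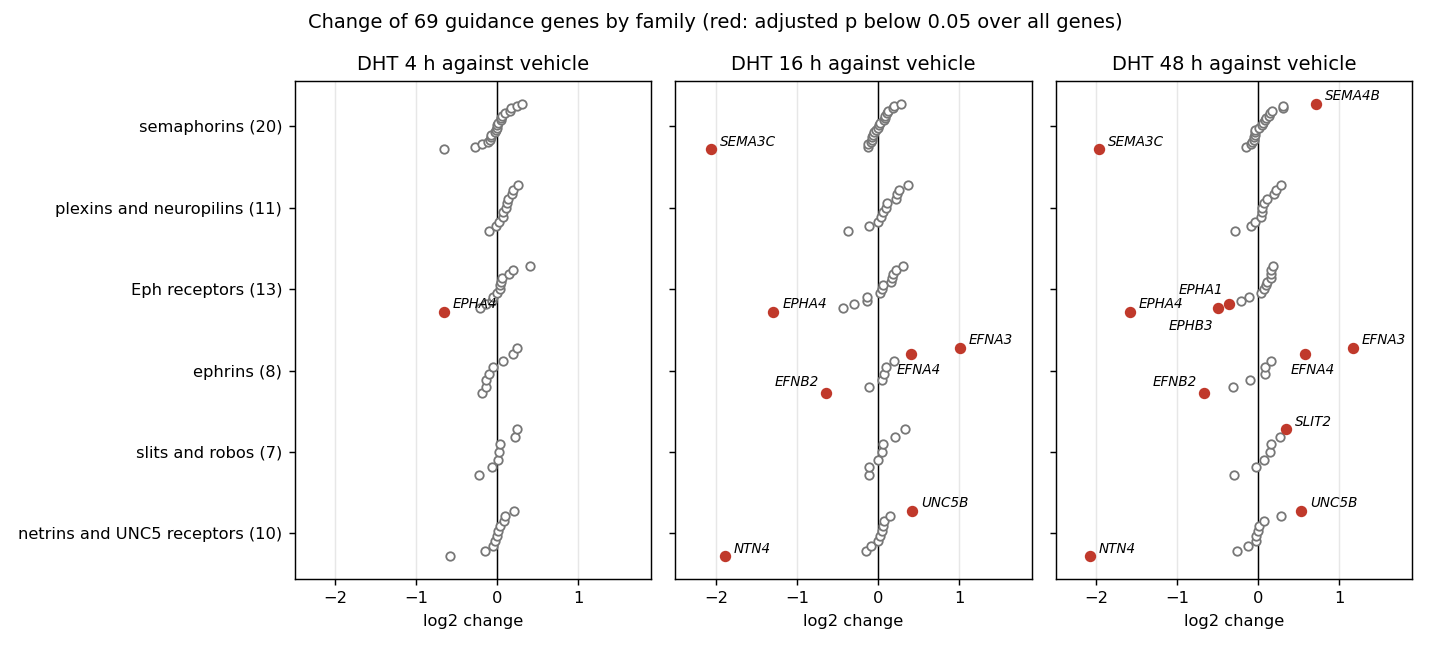
Log2 change against vehicle (horizontal axis) of each of the 69 guidance genes at 4, 16 and 48 h of DHT, by family; red filled points were called at an adjusted p below 0.05 over all genes and open points were not. SEMA3C, NTN4 and EPHA4 lie far to the left at 16 and 48 h, EFNA3 far to the right, and the plexins and neuropilins hold no called gene.

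The 3 largest falls were in a netrin, a semaphorin and an Eph receptor: NTN4, SEMA3C and EPHA4. NTN4, on chromosome 12, encodes netrin-4, a secreted, laminin-binding netrin of basement membranes. SEMA3C, on chromosome 7, encodes a secreted class 3 semaphorin. EPHA4, on chromosome 2, encodes a receptor kinase that binds ephrins of both types. Their promoters are shown because these genes carried the largest changes of the group and moved in the same direction. Each is the 300 bases from 250 before to 50 after the annotated start (RefSeq, GRCh38.p14), written 5′ to 3′ on the gene's strand, with the 50 bases after the start in capitals. The windows are chr12:95791106-95791405, chr7:80922340-80922639 and chr2:221574153-221574452, all on the minus strand.
NTN4: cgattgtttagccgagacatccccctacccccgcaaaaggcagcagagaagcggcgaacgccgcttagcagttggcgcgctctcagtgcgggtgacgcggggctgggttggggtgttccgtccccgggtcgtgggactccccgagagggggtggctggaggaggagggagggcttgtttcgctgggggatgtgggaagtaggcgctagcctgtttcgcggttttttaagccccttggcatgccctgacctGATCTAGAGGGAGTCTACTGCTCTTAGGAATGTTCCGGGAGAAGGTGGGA
SEMA3C: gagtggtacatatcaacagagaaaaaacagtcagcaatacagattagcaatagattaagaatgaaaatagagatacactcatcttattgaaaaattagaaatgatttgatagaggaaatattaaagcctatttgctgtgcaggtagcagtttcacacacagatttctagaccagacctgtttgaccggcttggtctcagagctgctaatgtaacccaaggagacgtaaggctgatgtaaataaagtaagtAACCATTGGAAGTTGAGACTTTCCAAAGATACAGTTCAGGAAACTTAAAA
EPHA4: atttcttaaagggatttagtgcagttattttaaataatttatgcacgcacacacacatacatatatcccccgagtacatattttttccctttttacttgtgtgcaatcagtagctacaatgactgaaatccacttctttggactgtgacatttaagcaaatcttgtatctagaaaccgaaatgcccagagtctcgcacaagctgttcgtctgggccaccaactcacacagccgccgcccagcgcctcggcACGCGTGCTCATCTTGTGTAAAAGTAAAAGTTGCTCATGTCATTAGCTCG
The SEMA3C window was poor in G and C, at 36.0% with 2 CpG dinucleotides, and 5.6% of 27305 promoters had a lower GC share. The EPHA4 window had 43.0% and 12 CpG, and the NTN4 window 62.3% and 21 CpG, where the median over all promoters was 58.3% and 14. 3 motifs were searched on both strands: a steroid response element, AGAACA (its half-site) and CACGTG (the E-box). The element was searched as AGAACA and TGTTC parted by 3 bases of any kind, and so contains the half-site. It lacks the last base of the full palindrome. None of the 3 motifs was in the windows of the 10 called members with a promoter in the reference. Among all 27305 promoters of this length 0.0146% held the element as searched, 14.9% the half-site and 7.43% the E-box. Among the 59 guidance promoters matched by symbol, 2 held the half-site (EPHB6 and NTN5) and 4 the E-box (EPHA8, SEMA3E, SEMA4D and SEMA6D).

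NTN4 had log2 signals of 10.20 and 10.24 in vehicle arrays, 9.75 and 9.53 at 4 h, 8.29 and 8.38 at 16 h, and 8.06 and 8.22 at 48 h. Each DHT array lay below both vehicle arrays, and the 16 and 48 h arrays lay below the 4 h arrays. NTN4 fell by 1.89 ± 0.10 on the log2 scale at 16 h (SE, n = 2, limma adjusted p = 1.2e-06) and fell by 2.08 ± 0.10 at 48 h, a 4.23-fold lower signal (adjusted p = 3.6e-07). At 4 h its log2 change was -0.58 ± 0.10 with no call (adjusted p = 0.0626), and it was called there with array weights (adjusted p = 0.0328) and with dim genes removed (adjusted p = 0.046). It was read by 1 probe set. The other secreted netrins, NTN1, NTN3 and NTN5, had log2 changes of -0.14 to 0.09 over the 3 times. Without DHT 16 h replicate 1 the 16 h change of NTN1 was -0.54, against -0.14 on all arrays (adjusted p = 0.748). That setting leaves DHT 16 h replicate 2, the array that differed from the rest, as the one 16 h array. NTN1 read 6.58 on it and 7.37 on DHT 16 h replicate 1. Its other probe sets read 7.18 and 6.78 on replicate 2, against 6.66 and 7.08, and 6.85 and 6.81, in vehicle arrays.

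SEMA3C had 11.10 and 10.82 in vehicle arrays, 10.46 and 10.15 at 4 h, 8.86 and 8.94 at 16 h, and 8.78 and 9.21 at 48 h. All DHT arrays lay below the vehicle arrays, and the ranges at 16 and 48 h overlapped. SEMA3C fell by 2.06 ± 0.15 at 16 h, a 4.17-fold lower signal (limma adjusted p = 1.6e-05), and fell by 1.97 ± 0.15 at 48 h (adjusted p = 1.1e-05, both log2, SE, n = 2). At 4 h the log2 change was -0.65 ± 0.15 with no call (adjusted p = 0.1985). Its second, dimmer probe set fell by 1.14 at 16 h and by 1.03 at 48 h, with calls over all probe sets, a smaller change in the same direction. Both SEMA3C probe sets carry the suffix _s_at, so they may bind several transcripts.

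EPHA4 had 9.99 and 10.13 in vehicle arrays, 9.50 and 9.31 at 4 h, 8.69 and 8.85 at 16 h, and 8.43 and 8.51 at 48 h. The 4 groups did not overlap, each lower than the one before it in time. EPHA4 fell by 0.66 ± 0.11 at 4 h (limma adjusted p = 0.0392), it fell by 1.29 ± 0.11 at 16 h (adjusted p = 3.2e-05) and fell by 1.59 ± 0.11 at 48 h, a 3.01-fold lower signal (adjusted p = 3.1e-06, log2, SE, n = 2). The 4 h call rested on single arrays: its adjusted p was 0.200 and 0.193 without vehicle replicate 1 and 2, 0.165 and 0.571 without DHT 4 h replicate 1 and 2, and 0.0774 when 1 of the 48 h arrays was dropped. It was 0.0637 with the replicate number as a block. Of its 4 other probe sets, 3 fell at 16 and 48 h with log2 changes at 48 h of -1.80, -1.25 and -2.47, and the dimmest read 0.13 with no call.

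**Figure D2:**
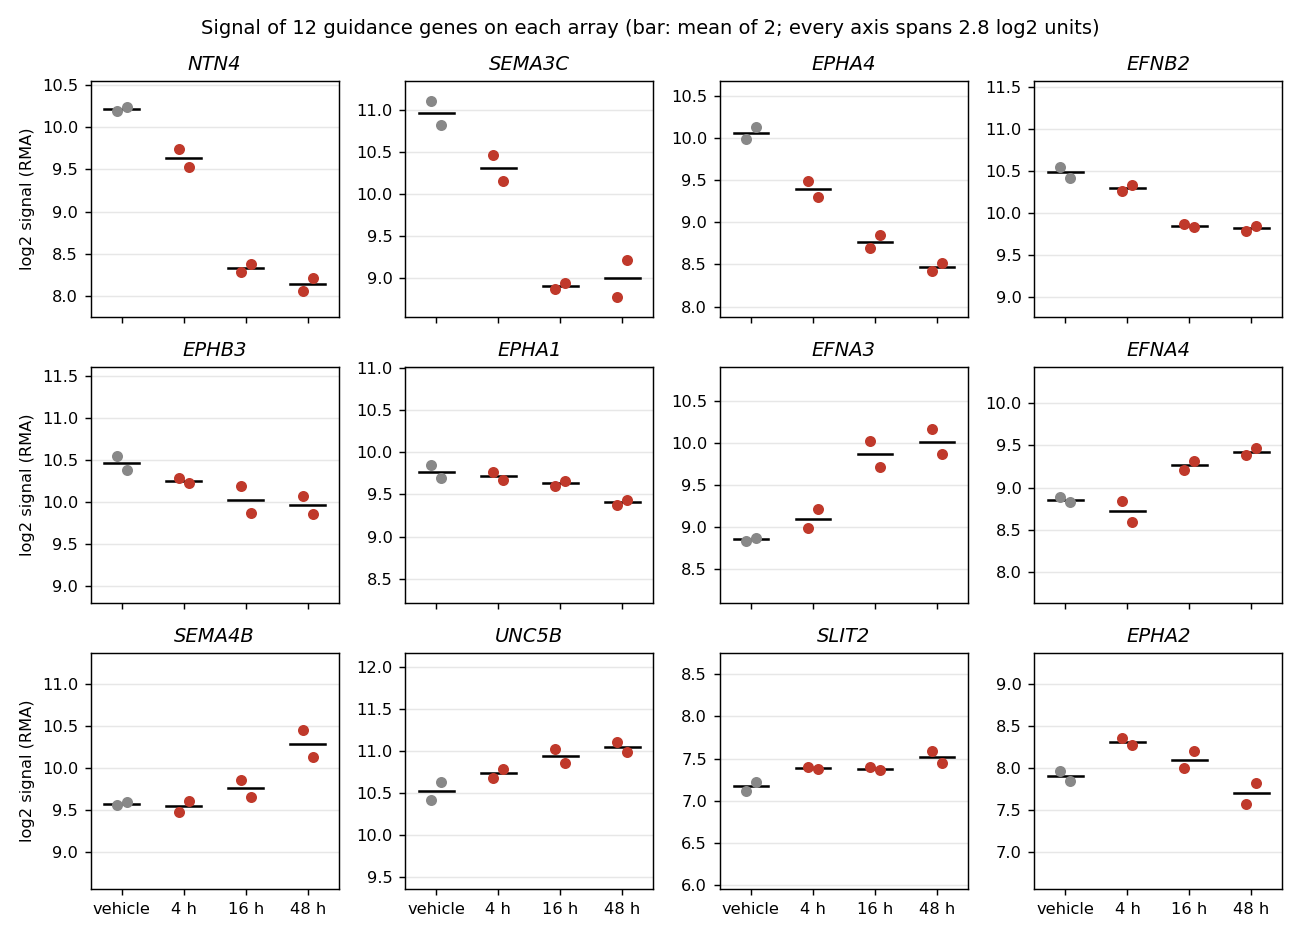
Log2 signal (RMA, vertical axis) of 12 guidance genes on each of the 8 arrays, with vehicle arrays in grey and DHT arrays in red by time, a bar at the mean of 2 arrays, and axes that all span 2.8 log2 units. The 4 h arrays of NTN4, SEMA3C, EPHA4, EFNB2 and EPHB3 lie below those of vehicle. Those of EFNA3, UNC5B, SLIT2 and EPHA2 lie above them, and of all these EPHA4 alone was called at 4 h. NTN4, SEMA3C, EPHA4, EFNA3, EFNA4, EFNB2 and UNC5B were called at 16 and 48 h. SEMA4B, EPHB3, EPHA1 and SLIT2 were called at 48 h, and EPHA2 was not called against vehicle.

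Among the other semaphorins 1 of 19 passed the test, at 48 h (all genes: 9.51%). SEMA4B, a membrane-spanning semaphorin, had 9.57 and 9.59 in vehicle arrays, 9.48 and 9.61 at 4 h, 9.86 and 9.66 at 16 h, and 10.45 and 10.13 at 48 h. Its arrays at 4 h spanned those of vehicle, and those at 48 h lay above all others. SEMA4B rose by 0.71 ± 0.12 at 48 h, 1.64-fold (limma adjusted p = 0.0032), with log2 changes of -0.03 at 4 h and 0.18 at 16 h and no call. The 18 semaphorins with no call had log2 changes of -0.27 to 0.30 over the 3 times. SEMA3F, a secreted semaphorin that binds neuropilin-2, had 11.80 and 11.98 at 48 h, against 11.90 and 11.98 in vehicle arrays, a log2 change of -0.05 ± 0.10 (adjusted p = 0.821). SEMA6B, a membrane-spanning semaphorin, had 9.40 and 9.37 at 48 h, against 9.03 and 9.15 in vehicle arrays, without overlap, and a log2 change of 0.30 (adjusted p = 0.0654). It was called at 48 h with dim genes removed (0.0416), with quantile normalisation (0.0343) and with arrays centred on housekeeping genes (0.0486, all adjusted p). The SEMA6B probe set read is of the _x_at kind, and its other probe sets did not rise. The brighter of these had 9.01 and 8.81 at 48 h, against 8.85 and 8.97 in vehicle arrays. The dimmer one had 5.91 and 5.81, against 6.16 and 6.11, and so lay lower. SEMA4C, of the same class as SEMA4B, had 0.19 at 16 h with no call (adjusted p = 0.482). Without DHT 16 h replicate 1 it had 0.43, which rests on DHT 16 h replicate 2 alone, the array that differed from the rest.

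Plexins and neuropilins, the semaphorin receptors, had 0 of 11 called by limma at 4, 16 and 48 h, with 0, 3 and 1 at an unadjusted p below 0.05. Over all genes 0.177%, 6.85% and 9.51% were called at these times, so a count of 0 among 11 is near that share. PLXND1, a plexin that binds several semaphorins, had 9.76 and 9.78 in vehicle arrays, 9.85 and 9.72 at 4 h, 9.96 and 10.31 at 16 h, and 9.81 and 9.87 at 48 h. The 16 h arrays lay above the others and stood 0.35 apart from each other, and the log2 change of PLXND1 at 16 h was 0.37 ± 0.12 (adjusted p = 0.0886). It was called with quantile normalisation (0.40, adjusted p = 0.0427) and with housekeeping centring (0.43, 0.0365). Without DHT 16 h replicate 1 its change was 0.55, which rests on DHT 16 h replicate 2 alone, the array that differed from the rest. PLXNB2, a receptor of class 4 semaphorins, had 12.87 and 13.13 in vehicle arrays, 13.03 and 13.12 at 4 h, 12.50 and 12.78 at 16 h, and 12.76 and 12.65 at 48 h. Its 16 and 48 h arrays lay below those of vehicle and 4 h, and its log2 change was -0.36 ± 0.12 at 16 h (adjusted p = 0.110) and -0.29 at 48 h (adjusted p = 0.182). PLXNA4 had 0.28 at 48 h with no call (adjusted p = 0.334). Without vehicle replicate 2 it had 0.55, which rests on vehicle replicate 1 as the one control array. PLXNA4 read 7.18 on vehicle replicate 1, 7.73 on vehicle replicate 2 and 7.62 to 7.81 on the DHT arrays. The neuropilins had 48 h changes of 0.04 ± 0.10 (NRP1) and -0.10 ± 0.16 (NRP2), with DHT 48 h and vehicle arrays overlapping for both.

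The ephrins had 3 of 8 called at 16 h (all genes: 6.85%) and 3 of 8 at 48 h (all genes: 9.51%). EFNA3 and EFNA4, ephrins of the A type, rose, and EFNB2, a B-type ephrin known as a marker of arterial endothelium, fell. EFNA4, EFNA3 and EFNA1 are neighbours on chromosome 1 (GRCh38.p14): EFNA4 lies at chr1:155063740-155069553, EFNA3 starts 9284 bases after its end, and EFNA1 starts 40338 bases after the end of EFNA3. The promoters of EFNA4 (chr1:155063490-155063789) and EFNA3 (chr1:155078587-155078886), both on the plus strand, are shown because these adjacent genes were both higher, with the 50 bases after the annotated start in capitals (RefSeq).
EFNA4: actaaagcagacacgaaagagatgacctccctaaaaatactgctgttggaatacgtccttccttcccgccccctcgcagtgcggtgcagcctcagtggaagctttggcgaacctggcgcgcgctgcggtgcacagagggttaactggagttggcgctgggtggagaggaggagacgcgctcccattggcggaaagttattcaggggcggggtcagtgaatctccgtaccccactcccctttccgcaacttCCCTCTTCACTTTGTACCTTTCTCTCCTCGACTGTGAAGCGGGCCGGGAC
EFNA3: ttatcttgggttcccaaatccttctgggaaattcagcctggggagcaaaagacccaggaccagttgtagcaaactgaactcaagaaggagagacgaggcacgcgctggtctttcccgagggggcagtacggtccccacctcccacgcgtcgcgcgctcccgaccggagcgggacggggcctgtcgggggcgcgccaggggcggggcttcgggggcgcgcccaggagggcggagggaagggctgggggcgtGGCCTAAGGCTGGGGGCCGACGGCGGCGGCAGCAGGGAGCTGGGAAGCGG
The EFNA3 window had 69.3% G and C with 28 CpG dinucleotides, and the EFNA4 window 58.3% with 20.

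EFNA3 had 8.83 and 8.87 in vehicle arrays, 8.99 and 9.21 at 4 h, 10.02 and 9.71 at 16 h, and 10.16 and 9.86 at 48 h. The DHT arrays lay above the vehicle arrays at each time, and those at 16 and 48 h overlapped. EFNA3 rose by 1.01 ± 0.13 at 16 h, 2.02-fold (limma adjusted p = 0.0009), and by 1.16 ± 0.13 at 48 h, 2.24-fold (adjusted p = 0.0002), and at 4 h had 0.24 with no call. EFNA4 had 8.89 and 8.83 in vehicle arrays, 8.85 and 8.59 at 4 h, 9.21 and 9.32 at 16 h, and 9.39 and 9.47 at 48 h. Its 4 h arrays reached down from the vehicle range and its 16 and 48 h arrays lay above it. EFNA4 rose by 0.41 ± 0.11 at 16 h (adjusted p = 0.0414) and by 0.57 ± 0.11 at 48 h, 1.48-fold (adjusted p = 0.0054). The 16 h call of EFNA4 was lost without vehicle replicate 1 (adjusted p = 0.150) or 2 (0.147), without DHT 16 h replicate 2 (0.178), without 1 or the other 48 h array (0.0631), and with the replicate block (0.0585). This call was also lost over all probe sets (adjusted p = 0.0921), with array weights and with the 2 groups compared alone. EFNA1, the third gene of the cluster, had 10.25 and 10.34 at 48 h, against 10.57 and 10.64 in vehicle arrays. Its arrays did not overlap in that comparison, and its log2 change was -0.31 with no call (adjusted p = 0.101). EFNA3 was read by 1 probe set, as were EFNA4 and EFNA1, and the EFNA4 probe set is of the _s_at kind. The reference also lists a gene named EFNA4-EFNA3, which had no probe set naming it alone. Its part in the rises of EFNA3 and EFNA4 was not tested.

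**Figure D3:**
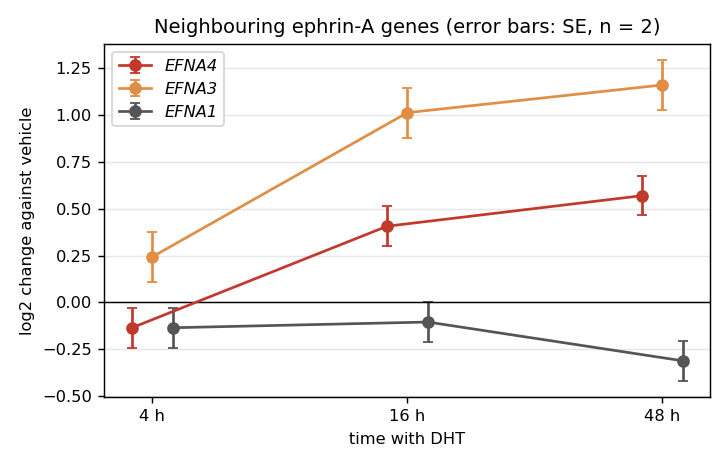
Log2 change against vehicle (vertical axis, error bars SE, n = 2) at 4, 16 and 48 h of DHT for EFNA4, EFNA3 and EFNA1, which are neighbours on chromosome 1. EFNA3 and EFNA4 lie above 0 at 16 and 48 h, where they were called, and EFNA1 lies below 0 with no call.

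EFNB2 had 10.55 and 10.42 in vehicle arrays, 10.26 and 10.33 at 4 h, 9.86 and 9.83 at 16 h, and 9.79 and 9.85 at 48 h. The 4 h arrays lay below the vehicle arrays and the later arrays below both. EFNB2 fell by 0.64 ± 0.09 at 16 h (limma adjusted p = 0.0017) and fell by 0.67 ± 0.09 at 48 h, a 1.59-fold lower signal (adjusted p = 0.00079, log2, SE, n = 2). Its other probe set fell by 0.66 and 0.72 at those times, with calls. The other ephrins, EFNA1, EFNA2, EFNA5, EFNB1 and EFNB3, had log2 changes of -0.31 to 0.20 over the 3 times.

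Among Eph receptors 3 of 13 were called at 48 h, all lower: EPHA4 (above), EPHB3 and EPHA1 (all genes: 9.51%, with 6.38% lower and 3.13% higher). EPHB3, a receptor of B-type ephrins, had 10.54 and 10.38 in vehicle arrays, 10.28 and 10.22 at 4 h, 10.19 and 9.87 at 16 h, and 10.07 and 9.86 at 48 h. All DHT arrays lay below the vehicle arrays. EPHB3 fell by 0.50 ± 0.12 at 48 h (limma adjusted p = 0.0256), and its second probe set, of similar signal, by 0.51. At 16 h its log2 change was -0.44 with no call (adjusted p = 0.0577), and the mean of its probe sets gave -0.41 with a call (adjusted p = 0.0094). The 48 h call was lost when vehicle replicate 1 was dropped (adjusted p = 0.197), or DHT 48 h replicate 1 (0.0571) or 2 (0.168), with quantile normalisation (0.0797) and over all probe sets (0.0683).

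EPHA1, a receptor of A-type ephrins, had 9.85 and 9.69 in vehicle arrays, 9.77 and 9.68 at 4 h, 9.61 and 9.67 at 16 h, and 9.38 and 9.44 at 48 h. The 48 h arrays lay below the rest, and EPHA1 fell by 0.36 ± 0.10 at 48 h (limma adjusted p = 0.0345). This call did not extend to its dimmer probe sets, which read 0.07 and -0.08, and it was lost with arrays centred on housekeeping genes (-0.32, adjusted p = 0.0595) and with quantile normalisation (-0.31, 0.0534). It was lost over all probe sets (adjusted p = 0.07255), with the mean of the EPHA1 probe sets and with the 2 groups alone. Leaving out single arrays ended it too: the adjusted p was 0.258 without vehicle replicate 1, 0.0571 when 1 of the 4 h arrays was dropped, and 0.210 and 0.0892 without DHT 48 h replicate 1 and 2. EPHA2, which binds A-type ephrins and is widely found in epithelia, had 7.97 and 7.85 in vehicle arrays, 8.36 and 8.27 at 4 h, 8.0 and 8.20 at 16 h, and 7.57 and 7.83 at 48 h. It was above vehicle at 4 and 16 h and below it at 48 h, with log2 changes of 0.40, 0.19 and -0.21 and no call against vehicle at any time. The test over all 3 times called it (adjusted p = 0.0215). The 10 Eph receptors with no call against vehicle had log2 changes of -0.30 to 0.40.

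**Figure D4:**
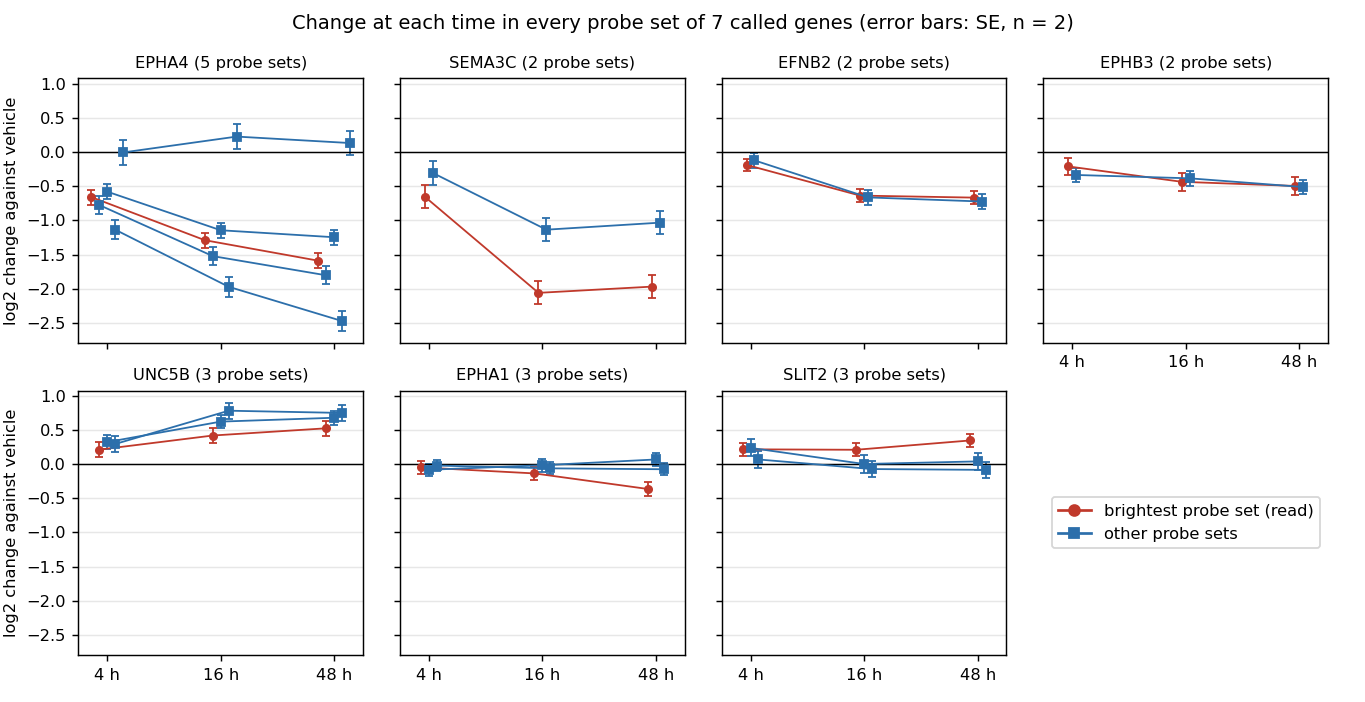
Log2 change against vehicle (vertical axis, error bars SE, n = 2) at 4, 16 and 48 h in every probe set of 7 genes with several, red circles for the brightest probe set, which was the one read, and blue squares for the others. The probe sets of SEMA3C, EFNB2, EPHB3 and UNC5B lie on the same side of 0 and so do 4 of 5 for EPHA4, while the others of EPHA1 and SLIT2 lie near 0 at 16 and 48 h and 1 of SLIT2 reads 0.24 at 4 h.

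UNC5B, a netrin receptor also known from vessel cells, had 10.41 and 10.63 in vehicle arrays, 10.68 and 10.79 at 4 h, 11.02 and 10.86 at 16 h, and 11.11 and 10.98 at 48 h. All DHT arrays lay above the vehicle arrays. UNC5B rose by 0.42 ± 0.11 at 16 h (limma adjusted p = 0.0411) and by 0.52 ± 0.11 at 48 h, 1.44-fold (adjusted p = 0.0101). Its 2 other probe sets rose more, by 0.62 and 0.78 at 16 h and by 0.68 and 0.75 at 48 h. Over all probe sets (adjusted p = 0.093), with array weights and with the 2 groups compared alone, UNC5B had no 16 h call. The 16 h call was lost without each array other than vehicle replicate 2, at adjusted p of 0.307 without vehicle replicate 1, 0.0663 when 1 of the 4 h arrays was dropped, 0.141 and 0.0520 without DHT 16 h replicate 1 and 2 and 0.0589 when 1 of the 48 h arrays was dropped, and with the replicate block (0.0591). The 48 h call was lost when vehicle replicate 1 was dropped (0.111) or DHT 48 h replicate 1 (0.110). UNC5A, UNC5C and UNC5D, the other UNC5 netrin receptors, had log2 changes of -0.05 to 0.27 over the 3 times, and UNC5CL, a related membrane protein, had -0.26 at 48 h with no call (adjusted p = 0.283). UNC50 had 10.08 and 10.31 at 48 h, against 10.33 and 10.32 in vehicle arrays, and a log2 change of -0.13 (adjusted p = 0.508).

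Of 7 slit and ROBO genes, 1 was called, at 48 h (all genes: 9.51%). SLIT2, a secreted ligand of ROBO receptors, had 7.12 and 7.22 in vehicle arrays, 7.40 and 7.38 at 4 h, 7.39 and 7.37 at 16 h, and 7.59 and 7.45 at 48 h. All DHT arrays lay above the vehicle arrays, and SLIT2 rose by 0.34 ± 0.09 at 48 h (limma adjusted p = 0.0399). SLIT2 had a mean signal of 7.36, under the median of 8.44 over all genes, a level that may also be background. Its 2 other, dimmer probe sets read 0.04 and -0.08 at 48 h with no call, and 1 of them read 0.24 at 4 h, where the read probe set had 0.22, neither with a call. SLIT2 had no call at 48 h over all probe sets (adjusted p = 0.0788) or with the mean of its probe sets. It had none with a probe set outside the _s_at and _x_at kinds or with the 2 groups compared alone. The call was lost without vehicle replicate 1 (adjusted p = 0.251) or 2 (0.0686), when 1 of the 4 h arrays was dropped (0.0707), without DHT 48 h replicate 1 (0.277) or 2 (0.0596) and with the replicate block (0.0577). ROBO1, a slit receptor, had 8.96 and 9.30 at 48 h, against 9.46 and 9.41 in vehicle arrays, a log2 change of -0.30 ± 0.13 with no call (adjusted p = 0.201). The other 5 had log2 changes of -0.22 to 0.33.

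The difference between DHT times does not use the vehicle signals, which enter only the estimate of spread. At 16 h against 4 h 6 of 69 members were called, 2 higher and 4 lower (all genes: 3.05%, with 1.28% higher and 1.77% lower), and 29 did not overlap (all genes: 42.4%). The log2 difference was -1.4 for SEMA3C, -1.31 for NTN4, -0.63 for EPHA4 and -0.45 for EFNB2, and it was 0.77 for EFNA3 and 0.54 for EFNA4 (limma adjusted p of 4.2e-05 for NTN4 to 0.0237 for EFNB2). Without DHT 4 h replicate 1 there were 3 calls, with EPHA4 (adjusted p = 0.126), EFNA3 (0.136) and EFNB2 (0.136) lost, and without DHT 4 h replicate 2 EFNA4 (0.191) and EFNB2 (0.196) were lost. Without DHT 16 h replicate 2 the calls of EFNA4 (0.0958) and EFNB2 (0.0966) were lost, and without DHT 16 h replicate 1 there were 9 calls. At 48 h against 16 h limma called 0 of 69 (all genes: 0.829%, with 0.349% higher and 0.48% lower), with 20 not overlapping (all genes: 37.3%) and 5 at an unadjusted p below 0.05. SEMA4B had the largest of these changes, 0.53 ± 0.12 (adjusted p = 0.0837), and without DHT 16 h replicate 1 it was called (0.63, adjusted p = 0.0367), as were NTN1 (0.53, 0.0278), SEMA4C (-0.48, 0.042) and PLXND1 (-0.47, 0.0465). In that setting DHT 16 h replicate 2, the array that differed from the rest, is the one 16 h array.

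A comparison of 48 h with 4 h was added after the values had been seen. It called 8 of 69, 3 higher and 5 lower (all genes: 6.13%, with 2.41% higher and 3.72% lower), and 35 did not overlap (all genes: 47.9%). EPHA2 was among them, with a log2 difference of -0.62 ± 0.11 (limma adjusted p = 0.0073), and lost its call without DHT 4 h replicate 1 (0.0897) and without DHT 48 h replicate 1 (0.0939). Without DHT 4 h replicate 1 there were 5 calls, since SEMA4B (0.0533) and EFNB2 (0.0603) were lost too.

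Genes that act with or below these receptors were read in 4 lists, and limma called none of their members at 4 h (1, 3, 1 and 1 at an unadjusted p below 0.05 in the lists for semaphorin, Eph and ephrin, slit and ROBO, and other guidance genes). Called at 16 h were 1 of 19, 1 of 18, 2 of 10 and 0 of 12 (all genes: 6.85%, with 4.3% lower), and at 48 h 2 of 19, 3 of 18, 0 of 10 and 1 of 12 (all genes: 9.51%, with 6.38% lower and 3.13% higher), all lower; with lists this small, most of these counts lie near or under the share over all genes. Of 19 semaphorin signalling genes, ARHGEF12, an exchange factor bound by B-type plexins, fell at both times (-0.65 and -0.84), and RND1, a small GTPase that binds plexins, at 48 h (-0.42). Of 18 Eph and ephrin signalling genes, the exchange factors TIAM1 (-0.57), KALRN (-0.50) and VAV3 (-0.42) fell at 48 h, and SDCBP, a scaffold that binds B-type ephrins, fell at 16 h (-0.56) with -0.30 and no call at 48 h. Of 10 slit and ROBO signalling genes, the actin regulators VASP (-0.57) and ENAH (-0.39) fell at 16 h and had -0.49 and -0.27 with no call at 48 h. Of 12 other guidance genes, among them DCC and NEO1, RTN4R, a receptor for myelin proteins, fell at 48 h (-0.36).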

How the data were processed

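The deposited table held log2 signals of 54675 probe sets on 8 Affymetrix HG-U133 Plus 2.0 arrays, normalised by RMA per the submitters' processing notes (version not given in the sources used here). Of these, 62 controls, 1801 probe sets with several symbols and 11721 with none were set aside, and each of 19775 genes was read by its probe set of highest mean. The 69 members had 170 probe sets, 49 had more than 1, and 24 were read by an _s_at or _x_at set. The RMA log2 values were used as deposited. Groups came from the sample titles. Means of the 4 groups came from 1 limma fit of the 8 arrays (limma 3.58.1, R 4.3.3, 4 residual and 7.21 prior degrees of freedom), two-sided, and the fit was tested on simulated data. The smallest exact permutation p for 2 v 2 arrays is 0.333, so none was run.

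Named are all called members, the 6 of highest signal, EPHA2, and up to 4 called genes of each signalling list (1 list is not reported here), with further members (such as NTN1, PLXNA4 and SEMA4C) picked after their values were seen. Members and lists were chosen with earlier results of these data known. Alternatives covered probe set choice, dim-gene filters, scaling, variance model, arrays in the fit, the replicate block and each array left out. Promoters and gene positions are RefSeq's (GRCh38.p14). The number of arrays limits precision: SEs at 48 h were 0.09 to 0.21.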

Additional observations from a re-analysis of the deposited data

Results flagged for a closer look

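The changes of 8 guidance genes against vehicle differed between DHT times by the test of the difference (limma over all genes, adjusted p below 0.05, n = 2 a group). At 16 h relative to 4 h the log2 differences were -1.4 ± 0.15 for SEMA3C (SE, adjusted p = 0.00045), -1.31 ± 0.10 for NTN4, -0.63 ± 0.11 for EPHA4 and -0.45 ± 0.09 for EFNB2. They were 0.77 ± 0.13 for EFNA3 and 0.54 ± 0.11 for EFNA4 (adjusted p = 0.019). At 48 h relative to 4 h, in the added comparison, the differences were -1.50 for NTN4, -1.31 for SEMA3C, -0.93 for EPHA4, -0.62 for EPHA2 and -0.48 for EFNB2. They were 0.92 for EFNA3, 0.74 for SEMA4B and 0.71 for EFNA4. Both arrays of each group lay on the side given by the sign. EPHA2 was the one of these 8 whose arrays lay above those of vehicle at 4 h and below them at 48 h.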

How the results depend on the processing

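The calls of NTN4, SEMA3C, EPHA4, EFNA3 and EFNB2 at 16 and 48 h, and of EFNA4 and SEMA4B at 48 h, kept their direction and their side of the threshold under all 19 alternatives, 8 of them without 1 array. The 1 reversal was that of EPHA1 at 48 h, which read 0.0676 (adjusted p = 0.747) from a probe set outside the _s_at and _x_at kinds. At 4 h the count of called members, 1 on all arrays, was 0 over all probe sets, 0 with probe sets outside the _s_at and _x_at kinds, 0 with the 2 groups compared alone and 0 with the replicate block, and 2 with genes above the median signal and 2 with array weights (NTN4 added). Without 1 array it ranged from 0 to 1 at 4 h, 5 to 10 at 16 h, 7 to 11 at 48 h, 3 to 9 for 16 h against 4 h, 0 to 4 for 48 h against 16 h, 5 to 8 for 48 h against 4 h and 6 to 13 for the test over 3 times. The labels name no shared source for arrays of 1 number, whose deviations correlated at -0.244 to 0.196, and with the replicate block 6 members were called at 16 h and 10 at 48 h. The test over 3 times has no value for 2 groups alone. SLIT2 was not tested with genes above the median signal, where 48 of 69 members remained. Over all genes the count of calls over the alternatives was 5 to 74 at 4 h (35 on all arrays), 517 to 1654 at 16 h (1354), 834 to 2211 at 48 h (1881), 171 to 1107 for 16 h against 4 h (604), 37 to 644 for 48 h against 16 h (164), 490 to 1561 for 48 h against 4 h (1213) and 995 to 2495 for the test over 3 times (1760). The median log2 change of all genes moved most at 16 h, where it was 0.08 with arrays centred on housekeeping genes, against 0.02 as deposited. Why calls moved was not tested.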
